A study of Homo sapiens with 42 samples.

Results

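The regions described here were distal enhancer candidates of NCI-H661 (H661), sorted by whether they carried H3K27ac, H3K4me1 or both. Islands of each mark were kept where both ChIP-seq replicates held them, and a region was called distal when it lay more than 5 kb from every GENCODE transcript start in hg38. There were 48007 regions of either mark, of which 17898 were distal. Of the distal regions, 3187 had both marks in both replicates, 5096 had H3K4me1 in both replicates and no H3K27ac island in either, and 2812 had H3K27ac in both replicates and no H3K4me1 island in either. These 3 classes held 11095 regions. The remaining 6803 distal regions could not be placed, since the second mark was found in 1 replicate alone or the islands did not match, and they were kept out of the classes.

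H661 is a non-small cell lung cancer line, classed as SMARCA4-deficient, that makes its own DPPA2 and DPPA4; the cells were parental and untreated. The H661 libraries comprised 2 replicates each for H3K27ac, H3K4me1, H2AK119ub, H3K36me2, H3K36me3, H3K9me3, DPPA2 and DPPA4, 1 library each for KDM2A and SUZ12, and the inputs. NCI-H1299 (H1299), a lung cancer line that does not express DPPA2 or DPPA4, carried inducible Flag-tagged DPPA2 and V5-tagged DPPA4 from a tet-response element, both in the control and in cells given 2 µg/ml doxycycline for 7 days (DOX). The sources used here do not say whether replicates came from separate cultures, so any spread between them may be technical.

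H3K4me1 is laid down on enhancers before and during their use, and alone it is taken as the mark of a primed enhancer; H3K27ac is added by p300 and CBP when an enhancer or promoter is active. DPPA2 and DPPA4 are SAP-domain proteins of early embryos and the germline that multimerise and bind CpG-rich promoters. KDM2A is a CXXC-domain H3K36 demethylase that binds unmethylated CpGs. SUZ12 is a core subunit of Polycomb repressive complex PRC2, and H2AK119ub is the ubiquitin mark written by PRC1.

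Stretches of 200 bases from 5 regions show the sequence range over which these factors were found, read from the hg38 reference on the plus strand, with each CpG in capitals. The AHRR, ARHGAP23 and NARF stretches lie in regions with both marks that held DPPA2/4, the NARF region held KDM2A and H2AK119ub as well, the FOXF2 stretch lies in an H3K4me1-only region with SUZ12, and the NEBL stretch in an H3K4me1-only region with none of the 4 factors or H2AK119ub. Regions are named by their nearest protein-coding gene throughout.
AHRR, chr5:392132-392331: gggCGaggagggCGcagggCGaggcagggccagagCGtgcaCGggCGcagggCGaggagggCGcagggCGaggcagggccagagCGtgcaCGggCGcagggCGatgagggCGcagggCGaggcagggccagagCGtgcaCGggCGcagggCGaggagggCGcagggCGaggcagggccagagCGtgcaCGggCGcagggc
ARHGAP23, chr17:38510579-38510778: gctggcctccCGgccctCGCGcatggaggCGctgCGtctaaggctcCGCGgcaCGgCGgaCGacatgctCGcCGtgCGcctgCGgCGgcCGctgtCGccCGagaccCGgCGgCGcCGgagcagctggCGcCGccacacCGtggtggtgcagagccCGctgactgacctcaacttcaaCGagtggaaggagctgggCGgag
NARF, chr17:82496847-82497046: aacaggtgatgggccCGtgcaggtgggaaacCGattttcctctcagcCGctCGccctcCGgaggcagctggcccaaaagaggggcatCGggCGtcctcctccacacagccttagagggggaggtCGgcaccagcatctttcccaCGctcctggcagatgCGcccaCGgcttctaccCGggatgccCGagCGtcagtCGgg
FOXF2, chr6:1378583-1378782: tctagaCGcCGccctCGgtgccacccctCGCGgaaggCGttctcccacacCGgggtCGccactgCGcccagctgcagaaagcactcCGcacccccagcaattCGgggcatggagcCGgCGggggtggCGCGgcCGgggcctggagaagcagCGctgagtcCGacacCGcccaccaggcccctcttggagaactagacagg
NEBL, chr10:21084151-21084350: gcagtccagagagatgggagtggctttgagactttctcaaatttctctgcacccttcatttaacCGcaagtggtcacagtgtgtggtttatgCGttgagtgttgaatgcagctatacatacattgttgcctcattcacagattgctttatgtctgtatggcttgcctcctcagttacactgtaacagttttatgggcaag
The stretches held 24, 28, 15, 19 and 2 CpGs in that order. The AHRR stretch was a tandem repeat, with 99.0% identity to itself at a shift of 98 bases, and how uniquely reads map there was not tested; the NEBL stretch, at 44% GC, was the CpG-poor one.

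Regions with both marks were the widest, with a median of 2800 bp against 1200 bp for H3K4me1 only and 1100 bp for H3K27ac only, and they covered 11.6 Mb, 7.14 Mb and 3.51 Mb. Median distance to a start hardly separated the classes, at 14.7, 14.6 and 15.2 kb. H3K4me1-only regions were intronic in 66.1% of cases, against 48.5% with both marks and 48.3% with H3K27ac only, where 39.2% and 37.0% were intergenic. The H3K27ac signal within islands was close between the classes that had it, with medians of 25.7 and 44 reads per kb in the 2 replicates with both marks and 24.4 and 41.4 with H3K27ac only. H3K4me1 gave 28.8 and 40.4 reads per kb with both marks and 26.4 and 36 with H3K4me1 only. The islands of the regions with both marks were thus longer rather than much denser. Part of this is set by the rule. A region with both marks is merged from islands of both, and a longer island more readily meets one of the other mark. Since a longer region has more room for any peak, the class comparisons of DPPA2/4, KDM2A, SUZ12 and H2AK119ub were repeated over the central 1 kb and within 5 groups of width. The other class comparisons below were not matched on width.

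The islands kept held 2162089 and 6044278 reads in the 2 H3K27ac replicates, 2807805 and 3109253 in H3K4me1, and 1318183 and 6649708 in H2AK119ub. KDM2A had 488201 reads in islands and 3093 narrow peaks. In H3K27ac, 68.1% of replicate 1 islands but 40.9% of replicate 2 islands matched the other replicate, and for H2AK119ub the values were 71.4% and 25.4%. Chromosome 20 held 322 of the 3187 regions with both marks (10.1%, 7.1 per Mb), and its islands had 7.07 input reads per kb against 4.12 to 6.57 on the other autosomes; the part of copy number in this was not tested. Of marker genes, 14 of 28 mesenchymal, 9 of 25 epithelial, 10 of 30 lung lineage, 4 of 17 neuroendocrine, 3 of 24 haematopoietic and 0 of 34 olfactory receptor genes had a promoter with H3K27ac, against 56.3% of all protein-coding genes. Marked promoters included VIM and ZEB1 among mesenchymal genes and EPCAM, KRT8 and KRT18 among epithelial genes, whereas CDH2, FN1 and CDH1 were not marked.

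DPPA2/4 bound regions with both marks far more often than H3K4me1-only regions. A DPPA2/4 peak, meaning a narrow peak found in all 4 DPPA2 and DPPA4 libraries, lay in 190 of 3187 regions with both marks (5.96%), in 26 of 5096 with H3K4me1 only (0.510%) and in 80 of 2812 with H3K27ac only (2.84%). Over all 17898 distal regions the share was 2.58%, and over 1 kb tiles of the distal genome it was 0.102%. The odds of a DPPA2/4 peak were 12.4 times as high with both marks as with H3K4me1 only (95% interval 8.19 to 18.7) and 2.17 times as high as with H3K27ac only (1.66 to 2.83). These intervals cover counting error over regions, which are not replicates of the cells, and no p-value is given. The order of the classes was the same in every library. DPPA2 replicate 1, with the most peaks, had peaks in 38.2%, 7.75% and 17.1% of the regions with both marks, H3K4me1 only and H3K27ac only, and DPPA2 replicate 3 in 13.7%, 1.35% and 6.97%. DPPA4 replicate 2 gave 13.3%, 1.28% and 6.05%, and DPPA4 replicate 3 gave 14.9%, 1.18% and 6.65%.

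**Figure D1:**
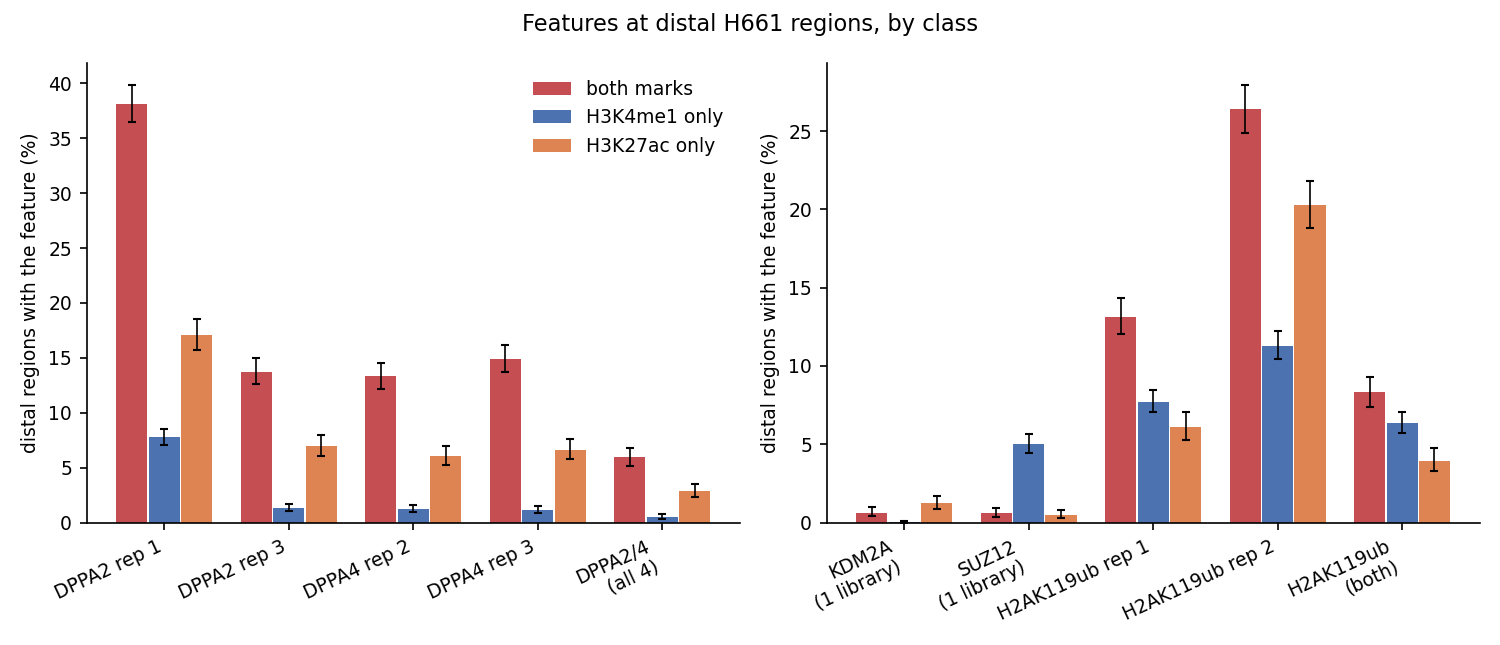
Bars show the share of distal H661 regions (%) holding each feature in the 3 classes, and error bars are 95% Wilson intervals over regions. In each DPPA2 and DPPA4 library the regions with both marks were highest and H3K4me1-only regions lowest, whereas SUZ12 was highest with H3K4me1 only (5.00%).

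The contrast with H3K4me1 only kept its direction when width was matched, at 6.84, and over the central 1 kb, at 10.8. It was smaller under other definitions, at 5.78 with EPIC2 islands in place of narrow peaks and at 4.44 when a region counted as H3K4me1 only unless both H3K27ac replicates shared a region there. Against H3K27ac only the odds ratio was 1.45 within groups of width, with an interval of 0.974 to 2.17, so a difference beyond counting error was not shown once width was matched. Among the 8825 DPPA2/4 peaks of H661, 58.3% lay at protein-coding promoters and 208 (2.36%) in distal regions with both marks. Median fold over input of those 208 peaks was 10.2, 6.14, 5.91 and 5.49 in DPPA2 replicates 1 and 3 and DPPA4 replicates 2 and 3, near the 10.3, 6.36, 6.44 and 5.98 of promoter peaks.

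The strongest DPPA2/4 peaks in regions with both marks were near AHRR, ARHGAP23, TPGS1, TENT5B, SNAI1, GADD45B, CYP2W1, TEX44 and GSE1, ranked by the lowest fold over the 4 libraries. AHRR, the repressor of the aryl hydrocarbon receptor, had 2 such regions in an intron, chr5:386101-391900 and chr5:392101-394400, which shared the same peaks at 77.1 and 27.8-fold in DPPA2 and 22.9 and 35.3-fold in DPPA4. The ARHGAP23 region, chr17:38507501-38513400, overlapped an exon and gave 28.9, 15.1, 15.4 and 13.1-fold in the 4 libraries in the order above. SNAI1 encodes the Snail repressor of epithelial genes, and the region 21.1 kb from it, chr20:50004101-50011600, gave 25.8, 9.70, 9.95 and 10.5-fold. GADD45B, a stress-induced gene, was nearest to 8 DPPA2/4-bound regions, the most of any gene, and GSE1 to 4. The 190 regions had 160 nearest genes, which was 0.800% of all protein-coding genes. Of the lists examined, these included 2 of 54 Wnt genes (WNT11 and FZD9) and 2 of 36 Polycomb genes (CBX7 and CBX8). Lists of 26 to 50 genes gave 1 each, namely SNAI1, ATF3, LATS2, LHX2, TFAP2C, FGFR3 and the housekeeping gene ACTB. No listed epithelial, lung lineage, neuroendocrine, haematopoietic, SWI/SNF or olfactory receptor gene was among them.

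H3K4me1-only regions with the strongest DPPA2/4 peaks lay near ENPP7, LPCAT1, DIO3, EFNA2 and ADGRA1, with lowest folds between 6.28 and 7.88. The ENPP7, DIO3 and ADGRA1 regions also held SUZ12, and all 5 overlapped an H2AK119ub island in each replicate. Those islands held 52 to 99 reads over their whole length in replicate 1, although that of EFNA2 did not match between replicates. Their H3K27ac-only counterparts lay near ADARB1, CXXC5, EXOSC2, CBARP and ZBTB8B. EXOSC2, an exosome subunit, and CBARP gave 37.1 and 34.8-fold in DPPA2 replicate 1 and 9.90 and 9.46-fold in their lowest library.

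DPPA2/4 in regions with both marks was mostly a feature of starts. At a start the share was 44.7% of 4862 regions, and it was 8.30% at 5 to 10 kb, 7.58% at 10 to 20 kb, 2.80% at 20 to 50 kb and 1.54% at 50 to 100 kb. Within 5 kb of a start 34.9% of regions with both marks held DPPA2/4 against 5.96% beyond it, an odds ratio of 8.45 (7.24 to 9.86). At the 5 kb limit itself the share hardly moved, with 22 of 332 regions (6.63%) at 4 to 5 kb and 16 of 253 (6.32%) at 5 to 6 kb. Peaks in regions with both marks were spread along them, with 57.4% in the central 50% of the width.

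**Figure D2:**
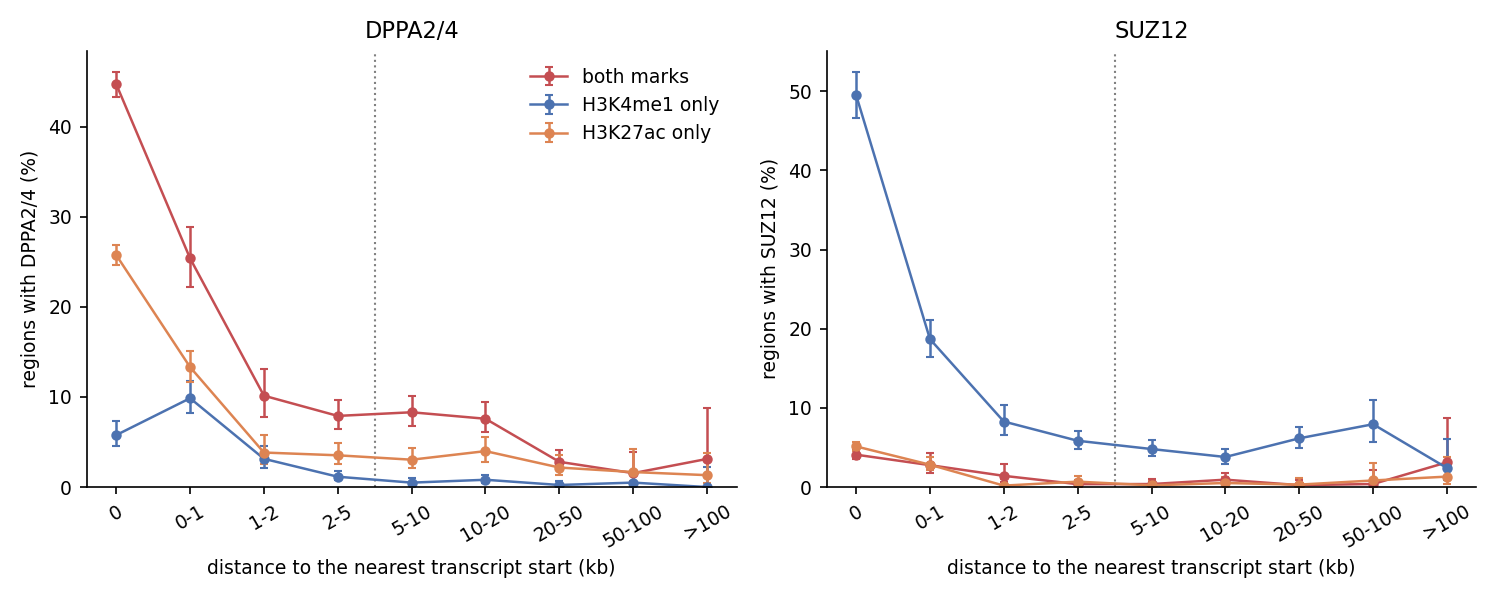
Share of H661 regions (%) with DPPA2/4 (left) and SUZ12 (right) against distance to the nearest transcript start in kb, by class, with 95% Wilson intervals; the dotted line marks 5 kb. DPPA2/4 was highest at starts in regions with both marks (44.7%), whereas SUZ12 was highest at starts in H3K4me1-only regions (49.5%). In that class SUZ12 was at 3.80% at 10 to 20 kb, 7.94% at 50 to 100 kb and 2.41% beyond 100 kb.

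KDM2A peaks were rare in all distal classes. They lay in 20 of 3187 regions with both marks (0.628%), in 1 of 5096 with H3K4me1 only (0.0196%) and in 35 of 2812 with H3K27ac only (1.24%), against 0.469% of all distal regions and 0.0156% of distal tiles. With both marks the odds were 32.2 times those with H3K4me1 only (4.32 to 239.9) and 0.501 times those with H3K27ac only (0.289 to 0.870). Within groups of width these ratios were 7.53 (1.23 to 46.0) and 0.346 (0.157 to 0.761). Over the central 1 kb they were 9.61 (1.16 to 79.9) and 0.154 (0.0646 to 0.368). These counts come from 1 library with few peaks. With EPIC2 islands in place of narrow peaks, the ratio to H3K27ac only was 2.38 (2.09 to 2.70), so the order of those classes depended on the peak caller. DPPA2/4 and KDM2A met in 10 regions with both marks, which was 5.26% of the DPPA2/4-bound ones against 0.334% of the others (odds ratio 16.6, 6.82 to 40.4). In H3K27ac-only regions it was 17 of 80 (21.3%) against 0.659%. Only 3 regions with both marks held DPPA2/4, KDM2A and H2AK119ub. They lay near NARF, BRSK2 and DLL4, with KDM2A folds of 8.89, 5.48 and 6.40. DLL4 is a Notch ligand and BRSK2 a kinase of polarised neurons. The NARF region, chr17:82494901-82499300, gave 8.48, 6.50, 6.22 and 5.15-fold in the DPPA2 and DPPA4 libraries.

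SUZ12, unlike DPPA2/4, was mostly in H3K4me1-only regions. Its peaks lay in 255 of 5096 regions with H3K4me1 only (5.00%), 19 with both marks (0.596%) and 13 with H3K27ac only (0.462%), against 1.83% of all distal regions and 1.01% of distal tiles. The odds ratio of both marks against H3K4me1 only was 0.114 (0.0713 to 0.182). Of the 255 regions, 82.0% carried H2AK119ub, against 2.35% of the H3K4me1-only regions without SUZ12. Their nearest genes were also unlike those of the other H3K4me1-only regions, with H3K27ac at the nearest promoter in 28.2% against 85.0% and H3K36me3 over the nearest gene in 18.0% against 68.4%. H3K9me3 lay in 19.6% against 1.05%. H3K36me2, which 7.75% of the others carried, was in 0 of the 255, which allows a share of up to 1.18%. Although SUZ12 was highest and DPPA2/4 lowest with H3K4me1 only, SUZ12 was more frequent with DPPA2/4 within each class. With both marks it lay in 11 of the 190 DPPA2/4-bound regions (5.79%) and 0.267% of the unbound ones (odds ratio 22.96, 9.12 to 57.8). With H3K4me1 only it lay in 10 of 26 and 4.83% (12.3, 5.53 to 27.4). With H3K27ac only it lay in 6 of 80 and 0.256% (31.6, 10.4 to 96.2).

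The 255 regions had 179 nearest genes, with factors of embryonic patterning among them. Of the 50 developmental transcription factor genes listed, 9 (18.0%) had such a region, namely DLX6, EMX2, EN1, EN2, GATA3, MEIS1, PAX2, PAX7 and TBX3, against 0.895% of all protein-coding genes. The 50 genes were nearest to 16.8 Mb of the distal genome, of 2127 Mb over all genes, and to 17 of the 255 regions. The shares of genes were not matched on this length. PTPRN2, a receptor-type phosphatase gene of secretory vesicles, had 15, and IRX4, PMEPA1, TBX3 and ZNF536 had 5 each. Among the 255 regions the highest SUZ12 fold was 52.1, at chr2:91478901-91479600, which lay 2787 kb from its nearest gene, RPIA. Within 100 kb of a gene the highest fold, picked after the values were seen, was 29.9 near LBX1 at chr10:101222001-101223100. LBX1 is a homeobox gene of muscle precursors and spinal neurons. PTPRN2 and FOXF2 followed at 29.7 and 29.6-fold, and PAX7 had 2 regions that shared a peak of 25.7-fold. Regions near these genes had H3K4me1 in both replicates, for example islands of 28 and 13 reads at PTPRN2 and 53 and 78 at FOXF2. Overlapping H2AK119ub islands held 145 and 441 reads at PTPRN2 and 422 and 337 at FOXF2. These are reads of whole islands, which can extend beyond the region.

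H2AK119ub lay in 265 regions with both marks (8.32%), 323 with H3K4me1 only (6.34%) and 111 with H3K27ac only (3.95%), against 6.08% of all distal regions and 1.44% of distal tiles. The shares were 13.1%, 7.73% and 6.12% in replicate 1 and 26.4%, 11.3% and 20.3% in the deeper replicate 2. The odds ratio was 1.34 against H3K4me1 only (1.13 to 1.59) and 2.21 against H3K27ac only (1.76 to 2.77). The first ratio depended on how regions were counted. It was 1.05 within groups of width (0.831 to 1.33), 1.08 over the central 1 kb and 1.16 without chromosome 20 (0.953 to 1.40), so the regions with both marks were not shown to carry H2AK119ub more often than H3K4me1-only regions of their width. The second was 1.42 within groups of width (1.03 to 1.97) and 1.79 over the central 1 kb.

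**Figure D3:**
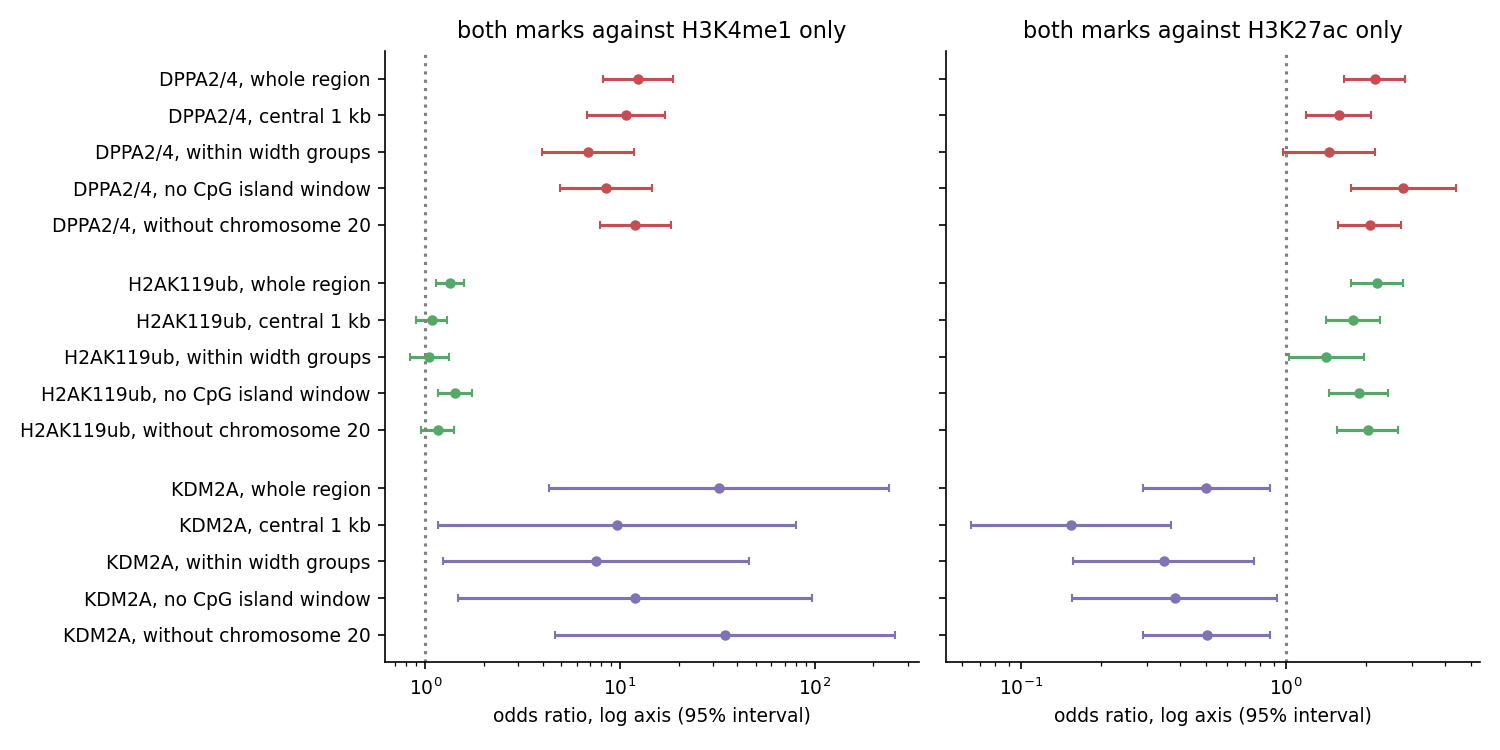
Odds ratios (log axis) of regions with both marks against H3K4me1 only (left) and H3K27ac only (right) for DPPA2/4, H2AK119ub and KDM2A, each over whole regions and under 4 other ways of counting, with 95% intervals; the dotted line is 1. The 5 DPPA2/4 ratios on the left lie between 6.84 and 12.4, whereas 3 of the 5 H2AK119ub ratios on the left have intervals that include 1.

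H2AK119ub was more frequent with DPPA2/4 in every class. With both marks it lay in 64 of the 190 bound regions (33.7%) and in 201 of the 2997 others (6.71%), an odds ratio of 7.07 (5.06 to 9.86). The shares were 41.6% and 11.3% in replicate 1 and 114 of 190 against 24.3% in replicate 2. With H3K4me1 only it lay in 12 of 26 bound regions (46.2%) and 6.13% of the others (13.1, 6.02 to 28.6), and with H3K27ac only in 11.3% and 3.73% (3.27); a difference between the classes was not tested. H3K36me2 lay in 19.5% of bound and 19.1% of unbound regions with both marks. Bound ones had a CpG island window, a 500 bp window passing the usual CpG island criteria, in 58.9% of cases against 4.6%.

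The other features of H2AK119ub-marked regions differed by class. With H3K4me1 only, 64.7% of the 323 H2AK119ub regions held SUZ12 and 3.72% DPPA2/4. With both marks, 6.79% of the 265 held SUZ12 and 24.2% DPPA2/4, giving odds ratios of 0.0397 (0.0234 to 0.0675) and 8.25 (4.34 to 15.7). Over all regions of these classes the DPPA2/4 ratio was 12.4 and the SUZ12 ratio 0.114, so the DPPA2/4 ratio was not larger among H2AK119ub-marked regions than in the classes as a whole, and neither change of ratio was tested. CpG island windows were as frequent in one as in the other, with 79 of 265 and 97 of 323 (0.990, 0.694 to 1.41). H3K36me2 lay in 41.1% of the regions with both marks and 4.95% of those with H3K4me1 only (13.4, 7.67 to 23.4). The nearest promoter had H3K27ac in 80.8% and 33.4%, and the nearest gene H3K36me3 in 64.9% and 20.7%. The H3K27ac libraries were those that defined the classes. Neither SUZ12 nor DPPA2/4 was found in 193 of the 265, 111 of the 323 and 99 of the 111 with H3K27ac only.

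**Figure D4:**
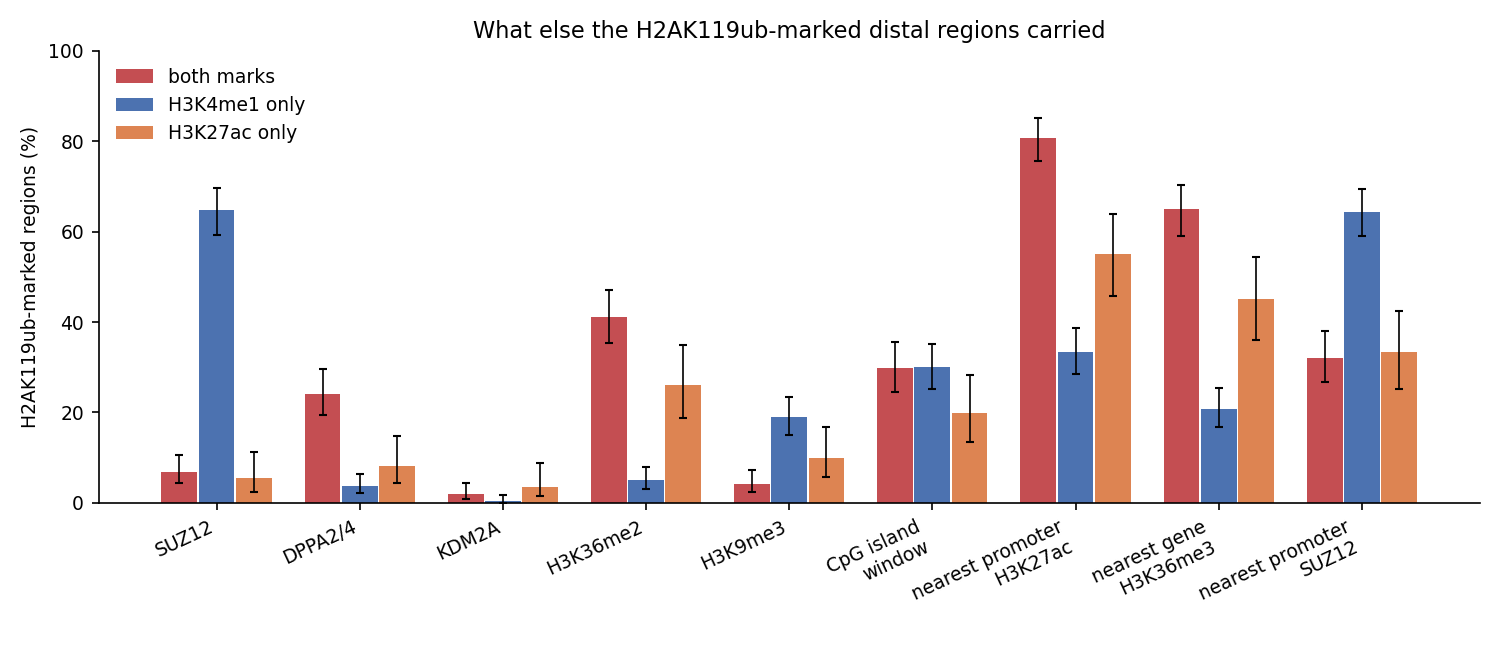
Share (%) of the H2AK119ub-marked distal regions in each class that held each other feature or had it at the nearest gene, with 95% Wilson intervals (265 regions with both marks, 323 with H3K4me1 only, 111 with H3K27ac only). SUZ12 was at 64.7% with H3K4me1 only and at 6.79% with both marks, and H3K36me2 at 4.95% and 41.1%.

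Distal regions of chromosome 20 carried H2AK119ub more often than those elsewhere. The chromosome held 83 of the 265 regions with both marks and H2AK119ub (31.3%), and 25.8% of its regions with both marks had H2AK119ub against 6.35% on the other chromosomes. The shares were 27.6% against 5.54% with H3K4me1 only and 10.7% against 3.23% with H3K27ac only. Of all H2AK119ub islands, 8.09% in replicate 1 and 4.81% in replicate 2 were on chromosome 20, against 7.33% and 5.38% of H3K27ac islands. H3K36me2 in regions with both marks was at 50.6% against 15.6%, whereas DPPA2/4 was at 5.59% against 6.00%. The genes nearest to the most such regions were CDH4 with 10, TFAP2C with 6 and BMP7 with 5, all on chromosome 20. CDH4 is a cadherin of the nervous system, TFAP2C an AP-2 factor of trophoblast and germ cells, and BMP7 a bone morphogenetic protein. Leaving chromosome 20 out, 29.7% of 182 regions with both marks and 4.41% of 272 with H3K4me1 only held H3K36me2 (odds ratio 9.14, 4.72 to 17.7), and the SUZ12 ratio was 0.0400 (0.0216 to 0.0741).

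Of the other marks, H3K36me2 lay in 19.1% of regions with both marks, 7.36% with H3K4me1 only and 9.60% with H3K27ac only, against 12.5% of all distal regions. The ratio to H3K4me1 only was 2.98 (2.6 to 3.42). H3K36me3, the mark of transcribed gene bodies, was highest with H3K27ac only, at 16.8% against 10.0% with both marks and 2.22% with H3K4me1 only (8.23% of all distal regions). H3K9me3, a heterochromatin mark, was also highest there, at 5.51% against 1.44% and 1.98% (2.42% of all distal regions).

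CpG content divided the classes less than it divided bound from unbound regions. Median GC was 47.4% with both marks, 43.5% with H3K4me1 only and 50.1% with H3K27ac only, and 250 (7.84%), 116 (2.28%) and 244 (8.68%) regions held a CpG island window. In regions with such a window DPPA2/4 lay in 44.8%, 8.62% and 22.5%, and in regions without one in 2.66%, 0.321% and 0.974%. The order of the classes was the same in each stratum, and without a window the ratio of both marks to H3K4me1 only was 8.46. SUZ12 was found in 84.5% of the H3K4me1-only regions with a CpG island window and H2AK119ub in 83.6%, against 5.20% and 31.6% of those with both marks.

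Short motifs on either strand in the central 500 bp were compared with all 500 bp tiles of the distal genome. The GC-box GGGCGG lay in 14.9% of regions with both marks, 9.97% with H3K4me1 only and 20.9% with H3K27ac only, against 4.75% of tiles; it was in 41.1% of DPPA2/4-bound regions with both marks and 13.2% of unbound ones. The AP-1 motif TGANTCA lay in 16.8%, 14.5% and 13% against 15% of tiles, and its ratio of both marks to H3K4me1 only was 1.19 (1.06 to 1.34). The TEAD motif GGAATG lay in 27.8%, 28.7% and 25.3% against 25.3%, and that ratio was 0.958 (0.868 to 1.06). The GATA motif AGATAA lay in 22.1%, 27.4% and 18.6% against 33.3%. Median GC of the central 500 bp was 48.6%, 44.6% and 51.2%, and its part in these shares was not tested. A match is not a bound site.

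Nearest genes of regions with both marks were more often marked as active. The nearest protein-coding gene carried H3K36me3 for 72.5% of regions with both marks, 65.9% with H3K4me1 only and 59.4% with H3K27ac only. With each nearest gene counted once the shares were 69.7%, 61.0% and 60.7%, against 42.2% of all protein-coding genes. Over regions, the odds ratios of both marks to these classes were 1.36 (1.24 to 1.5) and 1.80 (1.62 to 2.01). When H3K36me3 had to cover at least 25% of the gene body, the first was 2.6 (2.32 to 2.93) and the second 1.03 (0.920 to 1.16). H3K27ac lay at the nearest promoter for 85.6%, 82.2% and 75.4% of regions, and DPPA2/4 for 53.3%, 44.7% and 42.7%. Of all genes, each counted once, 56.3% and 26.3% had them. With each nearest gene counted once, H3K27ac was at 81.4%, 76.7% and 74.9%. Promoter H3K27ac was read from the libraries that defined the classes, so it was not independent of them. There were 1322, 2276 and 1551 nearest genes in the 3 classes. Of the 1322 near regions with both marks, 703 (53.2%) were also nearest to an H3K4me1-only region, and those 703 were 30.9% of the genes near H3K4me1-only regions; 357 genes were in all 3 classes.

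The genes nearest to the most regions with both marks were CITED2 and ZNF608 with 28 each, SLC6A15 with 27, CDH4 and CDH6 with 26, CDH10 and ZEB2 with 23, CDH9 with 20, and GSE1 and USP25 with 18. CITED2 is a p300 and CBP binding cofactor, ZEB2 a repressor of epithelial genes, and CDH4, CDH6, CDH9 and CDH10 are cadherins. Those of CITED2 covered 119500 bp between chr6:139366601-140601700. The cadherin and ZEB2 territories are long, so counts were also set against length. CDH9 had 6.66 regions per Mb of its territory, CDH6 13.3, CDH10 15.6, ZEB2 16.2, CDH4 25.1 and GSE1 47.7, against 1.5 over all protein-coding genes. Of these 10 genes only GSE1 and CDH9 had a DPPA2/4-bound region with both marks, with 4 and 1. H3K4me1-only regions were also frequent near some of them, with 30 at ZNF608, 24 at ZEB2 and 20 at CITED2, but 0 at SLC6A15.

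By gene list, regions with both marks per Mb were most frequent near 30 housekeeping genes, at 7.02, though with 6 regions in 0.855 Mb. There were 6.02 near 28 mesenchymal genes, which ZEB2 led with 23 of 40 regions, 4.92 near 30 Hippo pathway genes, 4.15 near 25 epithelial genes and 3.24 near both 26 AP-1 and stress factor and 30 pluripotency and germline genes, against 1.5 over all genes. The epithelial value rested on 3 regions in 0.723 Mb. TFAP2C alone was nearest to 13 of the 18 pluripotency and germline regions. H3K4me1-only regions were denser still near most of these lists, at 12.9, 6.32, 11.3, 5.53 and 6.65 per Mb for the housekeeping, mesenchymal, Hippo, epithelial and pluripotency genes, against 2.4 over all genes, and at 2.03 near the AP-1 and stress factors. LATS2, a Hippo kinase, had 4 regions with both marks, AMOTL2 had 3 and MYC had 8, against 1, 0 and 3 with H3K4me1 only. Near 50 developmental transcription factor genes there were 0.892 per Mb with both marks and 3.69 with H3K4me1 only, against 1.5 and 2.4 over all genes. NR2F1, an orphan receptor of neural crest, had 10 with both marks and 29 with H3K4me1 only. TFAP2C had 13 with both marks and 2 with H3K4me1 only. No region with both marks was nearest to any of 17 neuroendocrine or 34 olfactory receptor genes, whose territories were short, at 1.6 and 0.447 Mb, so that few regions would fall there at the density over all genes.

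In H1299, islands of both marks were most frequent at the regions that had both marks in H661, and the other classes each came next for the mark that defined them. H3K27ac lay at 16.8% and 15.7% of the regions with both marks in the control replicates and at 30.1% and 19.3% in DOX. For H3K4me1-only regions the values were 4.73% and 3.73%, then 10.5% and 5.18%, and for H3K27ac-only regions 6.54% and 6.44%, then 13.6% and 8%. Control and DOX did not overlap in any class. They also did not overlap at the distal regions that could not be placed, at 7.95% and 7.35%, then 17.9% and 9.58%. Nor did the numbers of all H3K27ac islands kept, at 30614 and 28105, then 49726 and 35357. DOX replicate 1 had 2777360 reads in islands against 759619 to 979366 in the other 3 libraries, and the part of depth was not tested. H3K4me1 lay at 28.6% and 32.3% of the regions with both marks in the control and 34.1% and 34.9% in DOX, and at 16.2% and 20.9%, then 20.0% and 20.5%, of the H3K4me1-only regions, where the groups overlapped. At H3K27ac-only regions it lay at 7.5% and 8.96%, then 9.64% and 10.5%. At the distal regions that could not be placed it lay at 16.4% and 20.9%, then 21.6% and 22.7%. Control and DOX did not overlap there either, nor in the numbers of all H3K4me1 islands kept, at 49309 and 58677, then 60785 and 64043. In a two-sided exact permutation test over 2 against 2 libraries none of the 6 comparisons of DOX with control went below p = 0.333, the smallest such a design allows (adjusted p = 0.4 over the 6). Regions with both marks bound by DPPA2/4 in H661 held H3K27ac in both DOX replicates in 28.9% of cases and the unbound ones in 15.9% (odds ratio 2.15, 1.55 to 2.98). In control cells, without induction, the shares were 17.4% and 10.4% (1.81, 1.22 to 2.68). A change of this gap on induction was not tested.

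**Figure D5:**
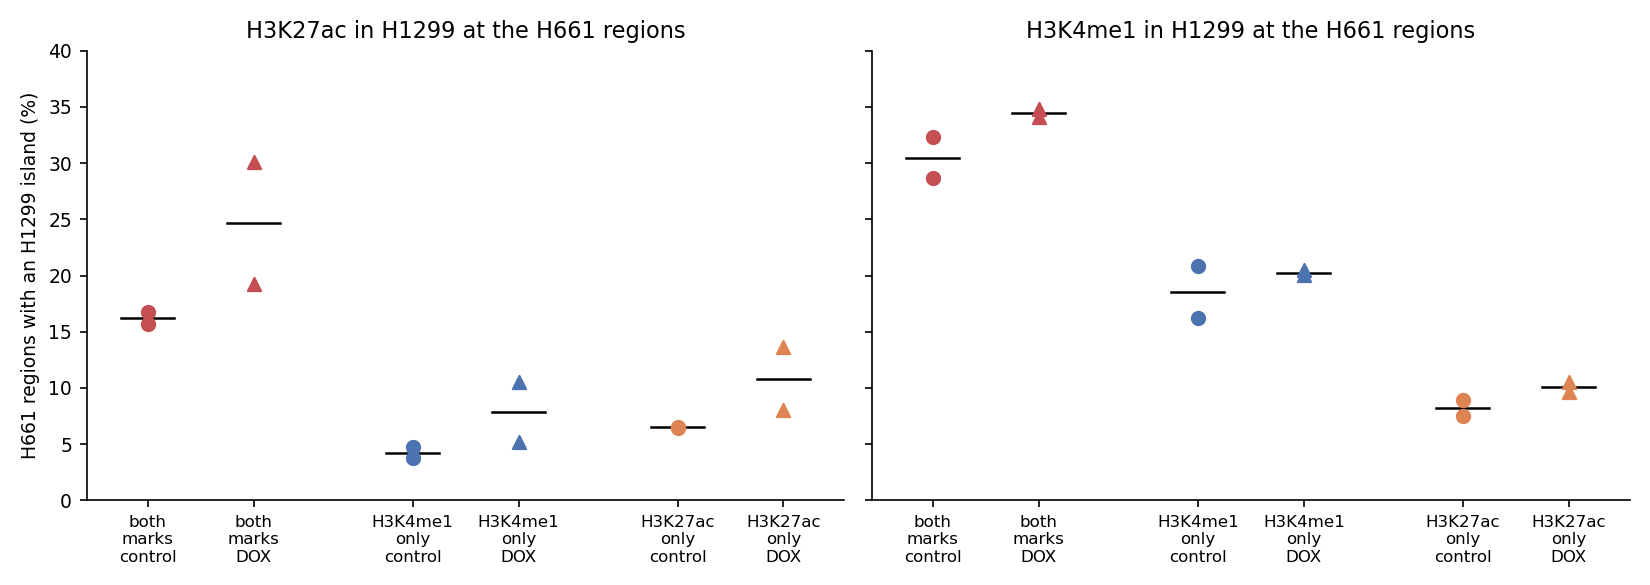
Share (%) of the H661 regions of each class that held an H3K27ac (left) or H3K4me1 (right) island in H1299, with control libraries as circles, DOX libraries as triangles and their mean as a line. Regions with both marks were highest in all libraries, and 1 of the 2 DOX H3K27ac libraries, at 30.1%, lies well above the other, at 19.3%.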

How the data were processed

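ChIP-seq was performed in H661 and H1299. Per the labels and methods, the authors trimmed reads (Trim Galore 0.6.6), aligned them to hg38 (BWA 0.7.13), marked duplicates (Picard 2.6.0) and called islands with EPIC2 against input for every library and MACS2 narrow peaks for the factors, each library separately; versions are from the submitters' processing notes. The values used were, from the deposited island files, the counts of ChIP and input reads, the FDR (an adjusted p-value) and the log2 fold over input, and, from the deposited peak files, the fold over input (a ratio) and the −log10 q-value. From these, islands with an FDR of at most 0.05 and a log2 fold above 1 on 24 standard chromosomes were kept, and replicates were matched where more than 25% of each island overlapped. DPPA2/4 peaks needed all 4 libraries. A feature was counted in a region on any overlap. Starts, genes and nearest genes came from GENCODE 44, promoters were taken as 1500 bp on either side of a start, and sequence came from the hg38 reference; no blacklist was applied. CpG island windows spanned 500 bp, with 55% GC or more and CpGs at 0.65 or more of the number expected from base content. Shares have Wilson and odds ratios Woolf or Mantel-Haenszel 95% intervals, which cover counting error only; a difference is one whose interval excludes 1. Class comparisons have no test across samples; DOX and control shares in H1299 were compared by an exact permutation test over libraries. Genes named in the text are nearest to the 10 regions with both marks, or 5 of another class, with the highest lowest-library DPPA2/4 fold, to the regions holding DPPA2/4, KDM2A and H2AK119ub, to the 5 regions of each class with the strongest marks (of which NEBL is printed), to the most regions with both marks, or up to 4 per gene list; those of SUZ12 and H2AK119ub were chosen after their values were seen. Members and gene lists were chosen with earlier results of these data known. The overlap and interval code was tested on simulated data. Python 3.11.15, numpy 2.4.6 and pandas 2.3.3 were used.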

Additional observations from a re-analysis of the deposited data

How the results depend on the processing

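Of 209 alternative values of 13 results, 178 kept their direction with an interval that still excluded 1 or, for counts, their size within 1.5 times. In 9 others the direction was kept but the interval included 1. The number of regions moved most. Requiring an overlap of 50% of each island left 1071, 2279 and 1610 regions with both marks, H3K4me1 only and H3K27ac only, and a log2 fold above 2 left 923, 1970 and 1754. Starts of protein-coding transcripts alone gave 4944 with both marks and 4776 with H3K27ac only. Defining a single mark as no region of the other shared by both replicates gave 9225 with H3K4me1 only and 5486 with H3K27ac only. Leaving out any 1 library gave 4668 to 6033 with both marks, 6327 to 22303 with H3K4me1 only and 3969 to 20384 with H3K27ac only.

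The ratio of H2AK119ub to H3K4me1 only had an interval including 1 at 50% overlap (1.36), a log2 fold above 2 (1.19), the central 1 kb (1.08), within groups of width (1.05) and without chromosome 20 (1.16, chosen after seeing the data), and over left-out libraries it ran from 0.904 without H3K4me1 replicate 1 to 2.81 without H2AK119ub replicate 1, with 0.994 without H3K27ac replicate 2. KDM2A against H3K27ac only was 0.658 at 25% of either island, turned to 2.38 with EPIC2 islands, and ran from 0.408 to 1.31 over left-out libraries, with 1.31 without H3K27ac replicate 1, 1.03 without H3K27ac replicate 2 and 0.767 without H3K4me1 replicate 2. DPPA2/4 against H3K27ac only was 1.45 within groups of width, and the nearest gene ratio against H3K27ac only 1.03 at 25% of the gene body, where that against H3K4me1 only was 2.6. DPPA2/4 against H3K4me1 only was 4.44 when a single mark was defined as above and 5.78 with EPIC2 islands. The causes were not tested. Over left-out libraries DPPA2/4 ran from 3.41 to 18.9 against H3K4me1 only, the low value without H3K27ac replicate 2, and from 1.59 to 3.93 against H3K27ac only. KDM2A against H3K4me1 only ran from 9.12 to 237 and was 6.63 with EPIC2 islands, SUZ12 from 0.0918 to 0.190, and H2AK119ub with against without DPPA2/4 from 4.68 to 5.56.

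No paired analysis was possible because each result above is an overlap of lists called in single libraries and comes from no test across samples. With 2 pairs per mark, pairing the H1299 libraries by number allows no smaller p than the unpaired exact test. KDM2A and SUZ12 had 1 library each, and H2AK119ub replicate 1 had the fewer reads, which limits the regions called marked in both replicates.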
